A study of Mus musculus with 36 samples.

Results

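The Hox gene clusters were examined in reduced representation bisulfite sequencing (RRBS, also called Methyl-seq) of B3, a pre-B lymphocyte line of the mouse. The 38 listed Hox genes comprised 10 in HoxA, 10 in HoxB, 9 in HoxC and 9 in HoxD. A CpG cluster was a run of listed positions at most 100 bp apart, and the members were those overlapping the body of a listed gene or 2 kb on either side of it. This rule used annotation only and found 80 of the 18009 CpG clusters of the table, with 3903 listed positions on 2334 CG dinucleotides. Of these, 77 had a position with a value in all samples and entered the tests, among 16734 CpG clusters in all. The other 3 lay near Hoxc9 (2 CpG clusters) and between Hoxd3 and Hoxd4. Of the 38 genes, 37 had a member, Hoxb1 being the exception.

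The data came from 36 samples in 2 series of 18. Cells of the Ikaros series had been transduced with an MSCV retrovirus. It supplied Ikaros with an HA tag, joined to ERt2, a part of the estrogen receptor that keeps its partner out of the nucleus until 4-hydroxy-tamoxifen (4-OHT) is bound, and it marked the cells with GFP through an IRES. Cells of the Control series carried the vector without Ikaros. Both series were collected at 0, 2, 6, 12, 18 and 24 h with 3 replicates each, after 0.5 µM 4-OHT. The labels give 4-OHT for 0 h as well, whereas the methods of the study describe 0 h as uninduced and its cells as a separate collection. Replicate 2 is batch 2 at 0 h and batch 3 at every later time, so batch and time cannot be told apart for it. Each series is a transduced population of a single cell line, so the construct and any other difference between the transduced populations cannot be told apart. Cell type markers could not be checked in methylation levels alone.

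Hox genes encode homeodomain transcription factors that set position along the body axis, and they stand in the order of their activation and of their expression from head to tail. Groups of paralogs with the same number in HoxA to HoxD descend from a shared ancestral gene. In blood formation, Hoxb4 and the 5′ genes of HoxA, such as Hoxa9 and Hoxa10, are active in stem and progenitor cells and are turned down as lineages mature. CpG-rich promoters are mostly free of methylation, and Hox genes in cells that do not use them are usually held by Polycomb proteins on unmethylated DNA, whereas cell lines often gain methylation at such genes.

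Coverage is not part of the deposited levels, and how many reads lie behind a value is unknown. Positions lacking a value made up a share that ranged from 0.139% to 3.18% in the Ikaros series and from 0.110% to 11.6% in the Control series, the highest in Control 0 h replicate 1. Smoothed levels of exactly 0 or 1 made up 26.9% to 59.1% of the values in Ikaros (median 34.2%) and at most 36.2% in Control (median 26.7%). Control 24 h replicate 2 stood apart. Over the 810 CpG clusters that differed between the series, it lay 68.3% of the way from the mean of the other Control samples to the Ikaros mean, whereas the other Control samples lay from -9.36% to 5.10% and the Ikaros samples from 83.1% to 126%.

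The sequences below are coding stretches of HoxB that departed from the high level of the other clusters, the first exon of Hoxb4, which was unmethylated, and 300 bases of the first coding exon of Hoxb8, which was intermediate and varied most between samples. Both are on the forward strand of GRCm38, the strand of these genes, and capitals mark the CG dinucleotides listed in the deposited table.
Hoxb4 exon 1, chr11:96318942-96319223, mean level 1.52%: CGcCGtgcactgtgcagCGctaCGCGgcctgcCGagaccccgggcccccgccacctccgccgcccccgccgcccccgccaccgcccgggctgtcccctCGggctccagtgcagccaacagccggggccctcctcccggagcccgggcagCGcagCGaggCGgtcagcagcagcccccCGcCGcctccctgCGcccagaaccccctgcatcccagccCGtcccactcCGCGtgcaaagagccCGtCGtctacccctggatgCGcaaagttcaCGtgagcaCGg
Hoxb8 exon 1, chr11:96282963-96283262, mean level 37.0%: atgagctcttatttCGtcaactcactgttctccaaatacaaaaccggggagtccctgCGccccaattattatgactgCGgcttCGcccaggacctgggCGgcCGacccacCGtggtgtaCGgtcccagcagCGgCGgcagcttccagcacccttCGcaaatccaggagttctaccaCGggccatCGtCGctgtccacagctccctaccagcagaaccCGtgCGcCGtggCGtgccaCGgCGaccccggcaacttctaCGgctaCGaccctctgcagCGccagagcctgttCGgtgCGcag
The Hoxb4 stretch held 21 listed CG dinucleotides and the Hoxb8 stretch 25. The level printed for Hoxb4 is the mean of the 15 of its 27 listed positions that had a value in every sample, none of them near its first base, and that for Hoxb8 is the mean of all 49. The first is rich in C and G and codes for the amino-terminal part of the protein.

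The Hox genes were methylated almost throughout in both series. Of the 77 CpG clusters, 67 (87.0%) had a mean level over 90%, 8 lay between 10% and 90%, and 2 lay under 10%. The median was 96.7%, and 54 members exceeded 95%. Over all 16734 CpG clusters, 40.2% were over 90% and 48.6% under 10%, with a median of 24.6%. Members were also CpG-rich in 71 of 77 cases (observed to expected CG ratio over 0.6 and GC content over 50%), and 87.3% of the CpG-rich members were over 90%, compared with 38.9% of all 15422 CpG-rich clusters. The share of CpG-rich sequence was 92.2% both in the members and in all CpG clusters.

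The pattern held at transcription starts. A member within 1000 bp of an annotated start was found for 35 genes, of which 30 were over 90%. The exceptions were Hoxb4 at 1.48%, Hoxb8 at 36.6%, Hoxa3 at 60.0% (the start of a long alternative transcript), Hoxc8 at 87.8% and Hoxb7 at 88.4%. For all protein-coding genes, the CpG cluster nearest to a start within 1000 bp was taken in the same way. Among these 10288 CpG clusters, 28.5% were over 90%, and the median was 0.819%. Counting every tested Hox member, the median was 96.7% for the 54 members within 1000 bp of a start and 96.6% for the 23 farther away. Of these, 49 (90.7%) and 18 (78.3%) were over 90%. Of the 17 members lying mostly outside annotated genes, 15 were over 90%, as were 16 of 19 in introns and 28 of 32 in coding sequence.

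Other homeobox genes were about as highly methylated as the Hox clusters. ParaHox and Evx genes, which are close relatives of Hox (8 genes, 15 CpG clusters), were over 90% in 93.3% of cases with a median of 95.3%. In other homeobox families, such as Dlx, Lhx and Irx (34 of 37 genes, 109 CpG clusters), the share was 84.4% and the median 95.9%. The noncoding genes of the Hox clusters, among them Mir10a and Hottip, had 18 of 19 over 90%, but 16 of their CpG clusters counted with the Hox genes as well. Hox cofactors of the Pbx, Meis and Pknox families, which bind DNA together with Hox proteins, were mixed, with 5 low, 5 intermediate and 6 high among 16. Regulators of Hox genes, mainly Polycomb and Trithorax components such as Ezh2 and Kmt2a, were low in 17 of 24 cases, with a median of 0.762%. Cdx1, Cdx2 and Cdx4 counted both as regulators and among the ParaHox and Evx genes.

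**Figure D1:**
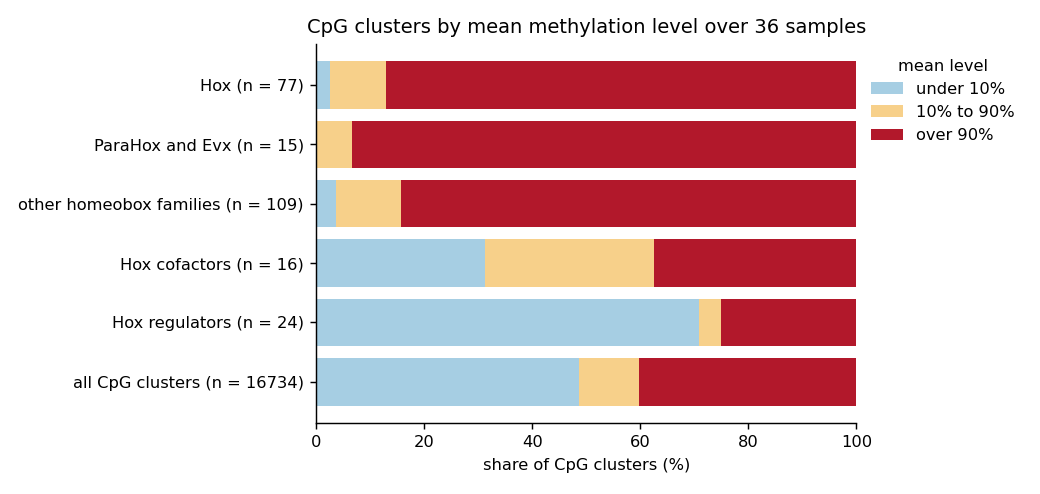
Share of CpG clusters (x axis, percent) with a mean level over 36 samples under 10%, from 10% to 90% and over 90%, for each gene list (n CpG clusters in brackets). Hox, ParaHox and Evx, and other homeobox genes were over 90% in 87.0%, 93.3% and 84.4% of cases, whereas 70.8% of the regulators were under 10%. Cdx1, Cdx2 and Cdx4 count in both the ParaHox and the regulator list.

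The 4 chromosomal clusters differed in mean level, and the order was the same in all 36 samples. The mean over CpG clusters was 80.1% ± 0.824 (SD over 36 samples) in HoxB on chromosome 11 (18 members), 91.8% ± 0.701 in HoxC on chromosome 15 (17 tested), 95.3% ± 0.431 in HoxA on chromosome 6 (27) and 96.5% ± 0.365 in HoxD on chromosome 2 (15 tested). The distance between neighbours in this order was 11.7 ± 1.02 percentage points from HoxB to HoxC, 3.50 ± 0.738 from HoxC to HoxA and 1.19 ± 0.497 from HoxA to HoxD (SD over 36 samples). The low mean of HoxB came from 5 of its 18 members. Its median CpG cluster was at 97.0%, above the 93.2% of HoxC, and its mean without the members under 90% was 97.1%, compared with 96.7% in HoxA, 94.6% in HoxC and 96.5% in HoxD. HoxC, in contrast, was lower as a whole.

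**Figure D2:**
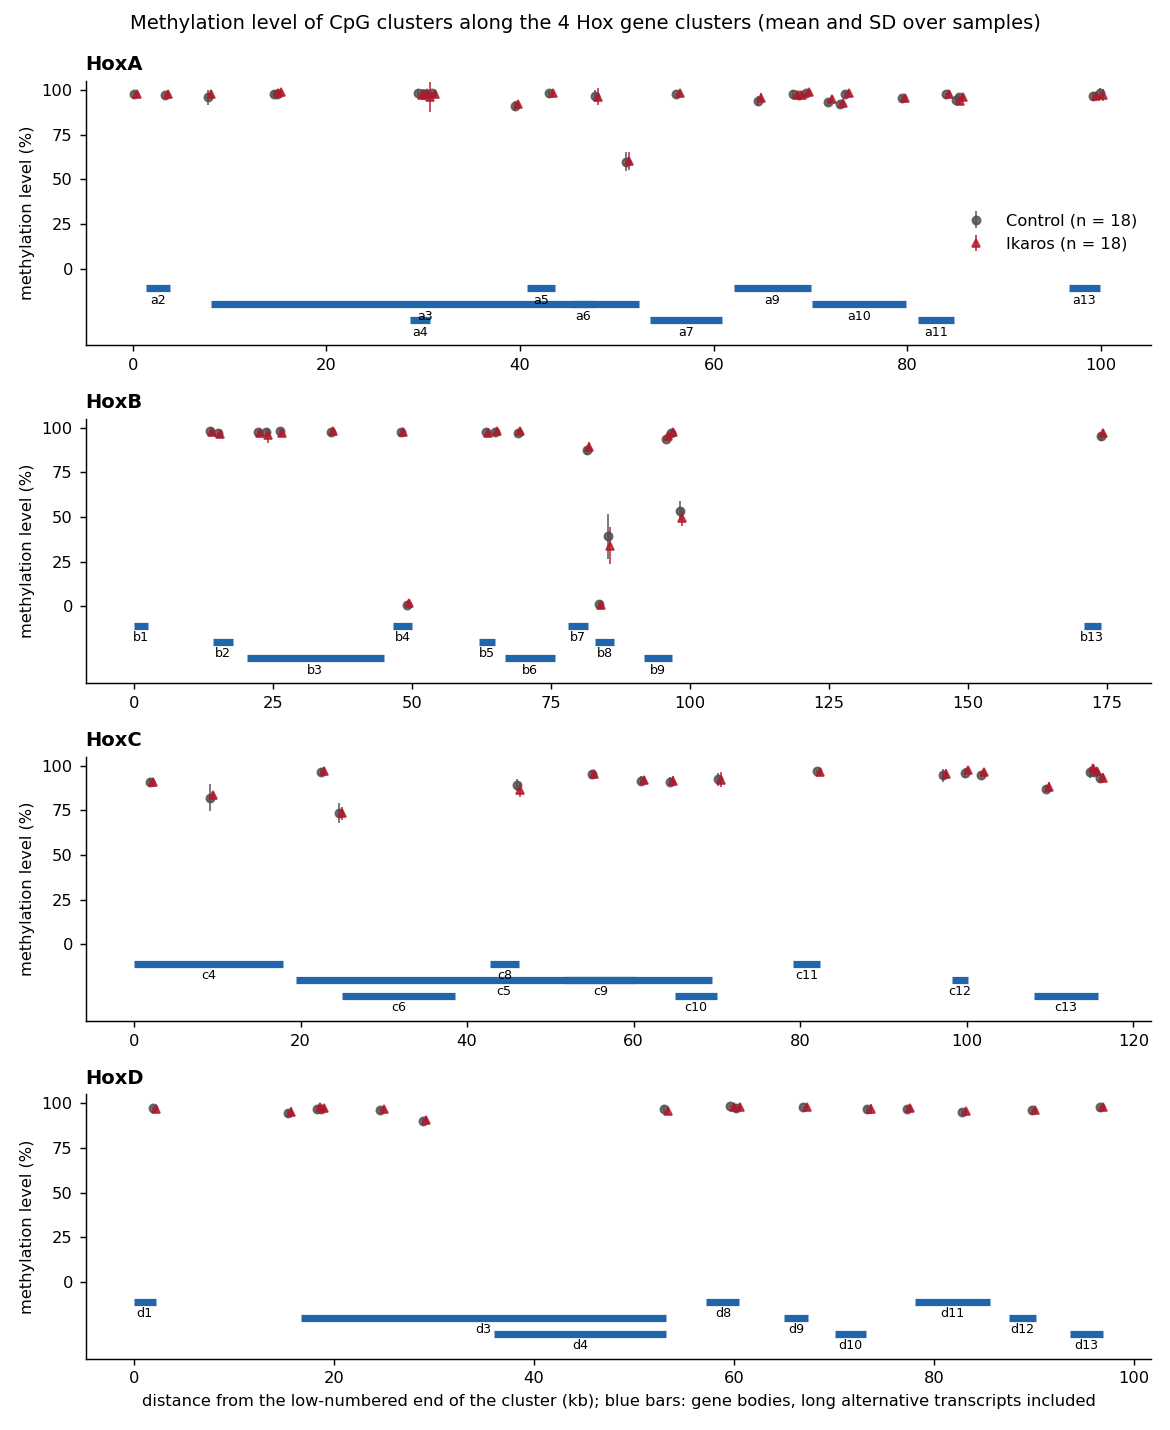
Methylation level (y axis, percent) of each tested CpG cluster against its distance in kb from the end with the low-numbered genes, for HoxA to HoxD. Points are means of 18 Control (circles) and 18 Ikaros (triangles) samples with SD bars, and blue bars are gene bodies; apart from 2 members under 10% and 3 from 36.6% to 88.4% in HoxB, 1 in HoxA and 4 in HoxC, all lie over 90%.

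Within a cluster, level did not follow the order of the genes in a uniform way. Across CpG clusters, Spearman's rho of the level with the paralog number was -0.26 in HoxA (n = 27), -0.48 in HoxB (n = 18), 0.53 in HoxC (n = 17) and 0.16 in HoxD (n = 15). These are descriptions over neighbouring sites of the same libraries. Over the 4 clusters together, the medians by paralog number lay between 93.2% and 97.4% except for number 8 (5 CpG clusters), where the median was 87.8%. Both Hoxb8 and Hoxc8 lay under 90%, but Hoxd8 reached 98.3%, so paralogs of the same number did not share a level.

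In HoxA, 26 of 27 members exceeded 90%. The highest were Hoxa9 (chr6:52230339-52230707) at 98.5% ± 1.03, Hoxa3 (chr6:52175853-52176022) at 98.5% ± 1.15 and Hoxa5 (chr6:52203853-52204264) at 98.1% ± 1.17 (SD over 36 samples). The exception was chr6:52211719-52212235, between Hoxa6 and Hoxa7 and within an intron of the long Hoxa3 transcript, at 60.0% ± 5.01. Its level rose from 44.1% to 85.7% over 341 bp. The members at the starts of Hoxa9 and Hoxa10, the 5′ genes used in progenitor cells, were at 98.5% and 94.0%, and that of Hoxa2, at the other end of the cluster, was at 97.4%.

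In HoxC, 4 of 17 tested members were intermediate. The lowest was chr15:103012028-103012330, in an intron of the long Hoxc5 transcript next to Hoxc6, at 73.4% ± 4.57. An intronic member of Hoxc4 (chr15:103027277-103028118) averaged 82.8% ± 5.30 and held positions from 41.5% to 97.6% within 132 bp. Its SD came mostly from Control 0 h replicate 1, at 54.8%, the library with the most missing values, and without it the mean was 83.6% ± 2.30 (range 77.5% to 89.6%). The start of Hoxc8 (chr15:102990730-102991058) and the last exon of Hoxc13 (chr15:102927205-102927508) were at 87.8% ± 4.09 and 87.5% ± 2.53. The highest members of HoxC were 2 of Hoxc13 (97.4% and 96.7%) and the start of Hoxc12 (96.8%).

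In HoxD, all 15 tested members exceeded 90%, from 90.5% at Hoxd3 (chr2:74735993-74736537) to 98.3% at Hoxd8 (chr2:74705269-74705778). Hoxd13 and Hoxd9, which pattern the limbs, were at 98.1% and 97.8%. Even here single positions were lower, since the first position of the Hoxd3 member at a start averaged 33.2% ± 8.10, and 494 bp farther the level was 95.8%. Over all clusters, 13 of the 77 members spanned more than 20 percentage points between their lowest and highest position, compared with a median span of 2.78.

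HoxB held both low members and the most variable one. Its 3 highest were Hoxb5 (chr11:96303173-96303366) at 98.0% and members of Hoxb3 and Hoxb2 at 97.9% each. Around Hoxb8, an anterior-posterior gene that also supports the growth of myeloid progenitors, the first coding exon (chr11:96282741-96283400) had 36.6% ± 11.7. This SD was the largest of any HoxB member, the level ranging from 19.4% to 65.0% over samples. Its first position with complete values averaged 6.83% ± 3.73 (9.03% in Ikaros and 4.64% in Control), and 220 bp farther the level was 43.5%. The end of the gene (chr11:96284417-96284677, mostly 3′ untranslated) was unmethylated at 1.05% ± 1.02, after a gap of 1016 bp. A further 1418 bp on, the member at the start of Hoxb7 (chr11:96286096-96287374) climbed from 32.5% to 98.1% over 614 bp and averaged 88.4% ± 2.80. About 9.9 kb on the other side, Hoxb9 was at 94.6% in its intron and 97.3% at its start, but its upstream member (chr11:96269874-96270311) was at 51.6% ± 5.37, with positions falling from 91.3% to 29.3% over 222 bp.

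Hoxb4, which promotes self-renewal of blood stem cells, was the only gene with an unmethylated member near its start. The member in the first exon (chr11:96318942-96319232) was at 1.48% ± 1.39, and no position in it averaged more than 2.25%. The member in the second exon (chr11:96320050-96320393), 817 bp away, was at 97.7% ± 0.911. The gap between them, mostly intron, held no listed position. The next members on either side, at Hoxb5 and Hoxb3, were at 97.2% and 97.9%.

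**Figure D3:**
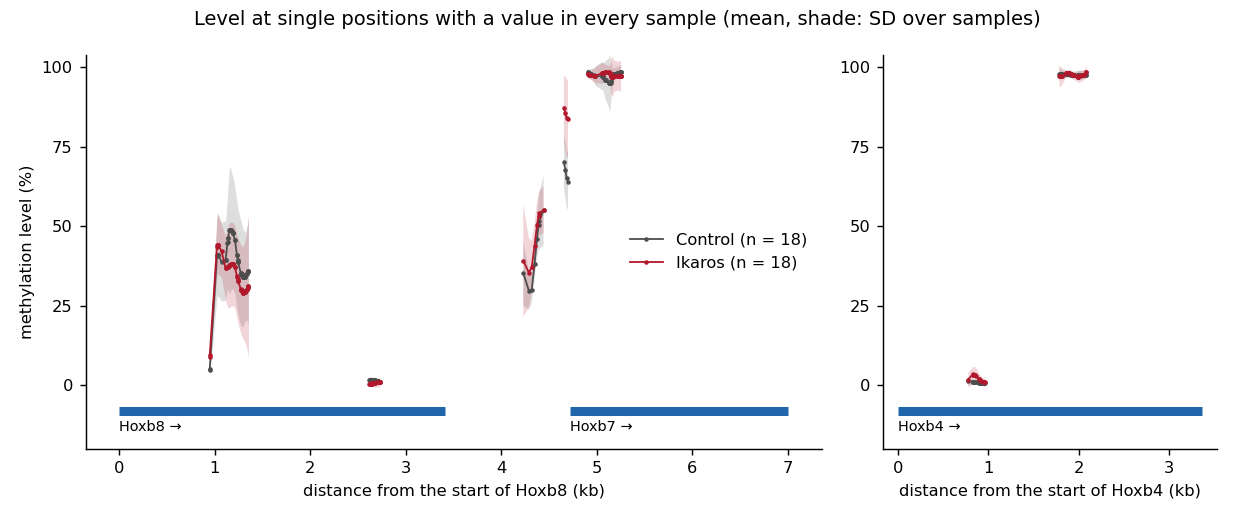
Level (y axis, percent) at single positions with a value in every sample, against distance in kb from the start of the longest transcript of Hoxb8 (left) and of Hoxb4 (right), as means of 18 Ikaros and 18 Control samples with SD shading, lines broken at gaps over 100 bp and blue bars for the genes. The left panel shows the intermediate first exon and the unmethylated end of Hoxb8 and the climb before Hoxb7, and the right panel the step from 1.48% to 97.7% inside Hoxb4.

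Whether Ikaros cells differed from Control cells was tested with the time point as a factor (limma, Benjamini-Hochberg adjustment over all CpG clusters). Of the 77 members, 2 differed at an adjusted p under 0.05, or 2.60%, and both were higher in Ikaros. Over all CpG clusters 4.84% differed, and 3.71% were higher in Ikaros. An unadjusted p under 0.05 was found for 12 members (15.6%), against 14.8% of all CpG clusters. The largest difference of any member was 5.23 percentage points, and the median size was 0.656 points in members and 0.255 over all CpG clusters, where low levels prevailed.

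The member in the intron of Hoxb9 (chr11:96272416-96272795), a gene of the trunk and mammary gland, was measured at 47 positions with complete values. Its level ranged from 93.0% to 97.0% (median 95.6%) in the 18 Ikaros samples and from 92.2% to 94.6% (median 93.7%) in the 18 Control samples. The groups overlapped little, with 16 Ikaros samples above the highest Control sample. The means were 95.6% ± 1.05 and 93.6% ± 0.794 (SD, n = 18 each), a difference of 2.02 percentage points and 0.58 ± 0.10 (SE) on the log2 M-value scale (limma, adjusted p = 0.000427). Ikaros was higher in 16 of 18 pairs of the same time point and replicate number, and by 1.67, 2.61 and 1.79 points within replicates 1, 2 and 3. The call held with any of the 36 libraries left out (adjusted p up to 0.000935), Control 24 h replicate 2 included (adjusted p = 0.000745).

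The first exon of Hoxb4 was the other called member. Levels ranged from 0.204% to 7.48% (median 1.82%) in Ikaros and from 0% to 2.07% (median 0.823%) in Control. Only 8 Ikaros samples lay above the highest Control sample, and most of both groups overlapped near the floor. Means were 2.14% ± 1.69 and 0.831% ± 0.479 (SD, n = 18 each), which is 1.30 percentage points and 0.70 ± 0.18 (SE) in M-value (limma, adjusted p = 0.0154). Ikaros was higher in 15 of 18 pairs. Single values at or under 1%, where the M-value is limited, made up 36.1% in Ikaros and 63.9% in Control. The call held without Control 24 h replicate 2 (adjusted p = 0.0219) and without Ikaros 18 h replicate 3, the highest sample (0.0135). With the shares of empty and of 0 or 1 values as covariates, the difference was 0.90 in M-value and missed the threshold (adjusted p = 0.0561). With every listed position it was 0.35 (adjusted p = 0.127), without replicate 1 it was 0.78 (adjusted p = 0.111) and without replicate 2 it was 0.58 (adjusted p = 0.248). Nor was the member called in the 0 h samples alone (0.42, adjusted p = 0.862) or within replicate 1, 2 or 3 alone (0.53, 0.92 and 0.64, adjusted p = 0.721, 0.253 and 0.741), which are fits of few samples. Ikaros was higher in all 8 of these fits.

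Members near the threshold were led by Hoxc12 (chr15:102935067-102935179), upstream of that gene. It was at 96.6% ± 1.71 in Ikaros and 94.8% ± 1.42 in Control (limma, adjusted p = 0.0530), higher in 16 of 18 pairs. It passed when any of 8 single libraries was left out, with adjusted p from 0.0126 to 0.0886 over the 36 omissions. The M-value difference of 0.70 was 0.84 in the 2 h to 24 h samples (adjusted p = 0.0192) and -0.03 in the 0 h samples (adjusted p = 1), where the means were 95.2% ± 3.12 in Ikaros and 95.4% ± 2.06 in Control (SD, n = 3, limma). Without replicate 3 it was 0.51 (adjusted p = 0.524). Hoxd3 (chr2:74746662-74747053) was at 98.0% ± 1.10 and 97.0% ± 1.19 (adjusted p = 0.0867), and passed in 3 of 36 omissions. It also passed with every listed position (adjusted p = 0.0228) and without replicate 1 (adjusted p = 0.0459), but its M-value difference of 0.54 was 0.34 without replicate 3 (adjusted p = 0.607) and 0.31 with the covariates (adjusted p = 0.718). The low end of Hoxb8 was at 0.631% ± 1.07 and 1.47% ± 0.785 (adjusted p = 0.213). Ikaros was higher there in 1 of 18 pairs, that of its highest sample (Ikaros 18 h replicate 2, 4.60%), without which the adjusted p was 0.00600. The M-value difference of -0.42 was -0.68 without replicate 2 (adjusted p = 0.0152), but -0.14 without replicate 1 (adjusted p = 0.861) and -0.27 in the 2 h to 24 h samples (adjusted p = 0.552). A member of Hoxb3 (chr11:96341938-96342188) was at 97.0% and 98.0% (adjusted p = 0.113) and passed in 2 of 36 omissions. The member at the start of Hoxa7 (chr6:52216968-52217395) was at 98.3% ± 0.592 and 97.6% ± 0.722 (adjusted p = 0.107), higher in Ikaros in 12 of 18 pairs. It passed with the batch as a factor (adjusted p = 0.0454) and in none of the 36 omissions. These members of Hoxb3 and Hoxa7 were singled out after their values were seen.

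The members with the largest differences were mostly those of intermediate level and large spread. The first exon of Hoxb8 had 33.9% ± 10.4 in Ikaros (20.9% to 57.8%) and 39.2% ± 12.7 in the Control samples, whose range was 19.4% to 65.0% (limma, adjusted p = 0.622). By replicate number, Ikaros minus Control was -16.7, 2.62 and -1.56 percentage points, and the M-value difference of -0.32 became 0.06 without replicate 1 (adjusted p = 0.967). Upstream of Hoxb9 the means were 49.7% ± 4.85 and 53.4% ± 5.33 (adjusted p = 0.496). At the start of Hoxb7 they were 89.5% ± 2.76 and 87.4% ± 2.47 (adjusted p = 0.531), and in Hoxc8 86.4% ± 4.23 and 89.2% ± 3.54 (adjusted p = 0.517). None of these 4 differences passed the test against the spread of the samples. In HoxA the largest were 1.90 points in Hoxa2, 1.88 in Hoxa9 and 1.78 in Hoxa10, with adjusted p of 0.432, 0.416 and 0.320. Over 50 settings of the series test (limma), the adjusted p of Hoxa10 ran from 0.0406 to 0.878. In HoxD the largest was the Hoxd3 member given above. Hoxc13 (chr15:102921937-102922111) was 2.36 points higher in Ikaros (limma, adjusted p = 0.137), but not at 0 h. There the means were 96.7% in Ikaros and 98.9% in Control, whereas at 24 h they were 100% and 94.7%. Over 50 settings of the series test (limma), its adjusted p ran from 0.0271 to 0.910.

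The widest gap between the series at a position of a member cannot be smaller than that of its mean, so these gaps only describe. The 2 HoxB members with the widest gaps at a position are described here, and were followed by exon 1 of Hoxb8 (-11.04 percentage points) and a member of Hoxb5 (-8.38 points, chr11:96304777-96305064). Upstream of Hoxb9 (chr11:96269874-96270311), Ikaros was higher at 3 of 23 positions and lower at the other 20. At its last position, the level ranged from 36.2% to 100% (median 66.7%) in Ikaros and from 0% to 59.2% (median 49.5%) in Control, with means of 69.3% ± 16.4 and 43.9% ± 16.7 (SD, n = 18). At the position 120 bp into the member the order was the opposite, with a mean of 37.2% in Ikaros (range 14.1% to 53.1%) and 50.7% in Control (range 35.8% to 64.5%). The series overlapped at both positions, and the gaps were 25.4 and -13.5 percentage points.

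In the Hoxb7 member, Ikaros was higher at 31 of 57 positions, and the widest gap was 19.6 points. Over the 4 positions in the last 100 bp before the start, the level ranged from 48.8% to 100% (median 86.8%) in Ikaros and from 55.0% to 86.8% (median 64.7%) in Control. Of the Ikaros samples, 9 lay above the highest Control sample, whereas the lowest sample of all was an Ikaros sample. The means were 85.2% ± 11.4 and 66.8% ± 8.63 (SD, n = 18), 18.4 percentage points apart. These positions of Hoxb9 and Hoxb7 were chosen after their values were seen, and no test was made of them.

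**Figure D4:**
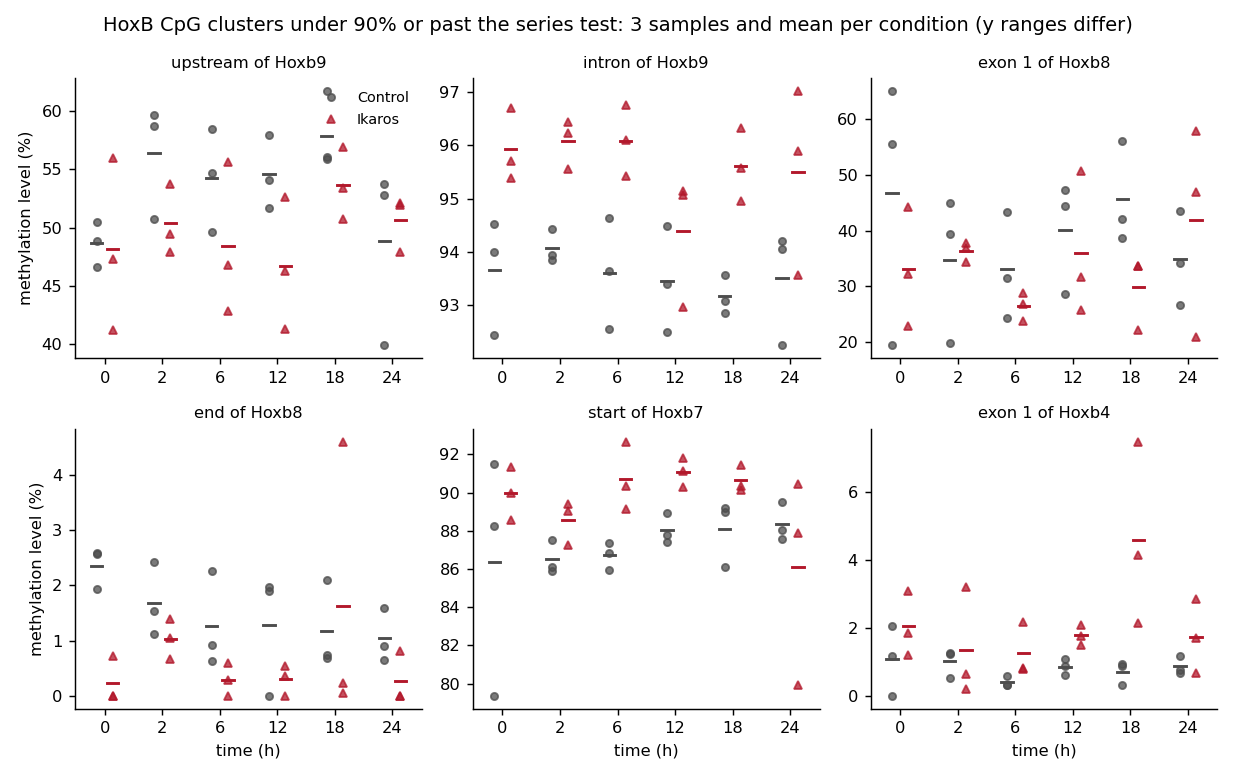
Level (y axis, percent, ranges differ between panels) of the HoxB members under 90% or past the series test, against time in h, with 3 Control (circles) and 3 Ikaros (triangles) samples and their mean (bar) per time point. In the Hoxb9 intron 16 Ikaros samples lie above every Control sample, whereas in exon 1 of Hoxb8 the series overlap between 20.9% and 57.8%.

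By chromosomal cluster, the series differed by less than 1 SD of the samples. The mean of Ikaros minus Control was 0.254 percentage points in HoxA, -0.256 in HoxB, 0.375 in HoxC and 0.239 in HoxD. The Control means were 95.2% ± 0.310, 80.2% ± 0.821, 91.6% ± 0.625 and 96.4% ± 0.262 (SD, n = 18). Of the 77 members, 48 (62.3%) were higher in Ikaros, compared with 55.3% of all CpG clusters.

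No Hox member changed over time past the threshold in either series. In Ikaros, limma's F test over the time points called 0 of 77 (0% of all CpG clusters), with 7 at an unadjusted p under 0.05 (5.22% of all CpG clusters) and a smallest adjusted p of 0.696, in Hoxd10. In Control, it called 0 of 77 (0.012% of all), with 5 at an unadjusted p under 0.05 (4.83% of all) and a smallest adjusted p of 0.954. The test of a different course in the series called 0 of 77 (0% of all), with 5 at an unadjusted p under 0.05 (5.12% of all), the smallest adjusted p being 0.871 in Hoxc12. The F tests in Ikaros were led by Hoxd10 (chr2:74687765-74687983), Hoxc8 and Hoxc9 (chr15:102981864-102981949), and those in Control by Hoxa9 (chr6:52229019-52229448), Hoxd1 and Hoxc12.

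The last and the first time point were also compared directly. In Ikaros, 0 of 77 members passed (0.0418% of all CpG clusters), and 10 had an unadjusted p under 0.05 (11.2% of all). Of these, 9 were higher at 24 h (8.46% of all CpG clusters) and 1 was lower. The smallest adjusted p was 0.0994, at Hoxd3 (chr2:74749474-74750112). There the 3 Ikaros samples were at 88.8%, 94.3% and 95.3% at 0 h and at 96.5%, 100% and 98.3% at 24 h. All 24 h samples lay above all 0 h samples, with means of 92.8% ± 3.48 and 98.3% ± 1.75 and a difference of 1.85 ± 0.47 (SE) in M-value. In Control, the same member went from 93.3% ± 0.185 to 95.9% ± 1.53 (0.57 ± 0.47 in M-value, adjusted p = 0.938). Without Ikaros 24 h replicate 1 the Ikaros contrast passed (adjusted p = 0.0302), and without Ikaros 0 h replicate 1 (88.8%) the difference of 5.48 points was 3.50.

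The next members in Ikaros were Hoxb2 (chr11:96352775-96353489), at 94.9% ± 2.75 and 98.0% ± 1.42 at 0 and 24 h (limma, adjusted p = 0.218), and Hoxc11, at 97.1% ± 0.211 and 93.1% ± 3.43 (adjusted p = 0.261). In each, 1 library carried much of the difference. For Hoxb2 the difference was 3.07 points, and without Ikaros 0 h replicate 1 (91.8%) the 0 h mean was 96.5%, against 98.0% at 24 h. For Hoxc11 it was -3.97 points, and -1.99 without Ikaros 24 h replicate 2 (89.1%). In Control, 0 of 77 passed (0% of all CpG clusters), and 5 had an unadjusted p under 0.05 (6.82% of all), each lower at 24 h (5.56% of all). These included the end of Hoxb8, at 2.36% ± 0.370 at 0 h and 1.05% ± 0.490 at 24 h (adjusted p = 0.655). At Hoxc8, which had the smallest p, the Control means were 93.6% ± 5.71 and 87.6% ± 4.62, and the Ikaros means rested on 77.9% to 88.9% at 0 h and 90.2% to 94.4% at 24 h (adjusted p = 0.655 and 0.350). These directions were opposite, but neither passed, and the SD at 0 h was close to the size of the difference in both series. The Control difference of -5.94 points was -2.72 without Control 0 h replicate 1 (100%) and -3.30 without Control 24 h replicate 2 (82.3%), the library that stood apart. The Ikaros difference of 6.71 points was 3.17 without Ikaros 0 h replicate 3 (77.9%).

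By chromosomal cluster, the range of the 6 time point means was 0.700 percentage points in HoxA, 1.34 in HoxB, 1.88 in HoxC and 0.834 in HoxD for Ikaros, and 0.548, 1.43, 0.655 and 0.280 for Control. The widest was HoxC in Ikaros, which ran from 91.2% ± 0.719 at 12 h to 93.1% ± 0.750 at 24 h (SD, n = 3). In Ikaros, HoxA, HoxC and HoxD had their highest means at 24 h, which in HoxA rested on 1 library. Without Ikaros 24 h replicate 1 (96.8%), the HoxA mean at 24 h was 95.48%, 0.225 points above 0 h in place of 0.671, and below the 95.50% of 18 h. HoxC and HoxD stayed highest at 24 h without any 1 of their libraries at 0 or 24 h. From 0 to 24 h, HoxA went from 95.3% ± 0.283 to 95.9% ± 0.796, HoxC from 91.9% ± 0.334 to 93.1% ± 0.750 and HoxD from 96.5% ± 0.276 to 97.1% ± 0.385. The HoxD samples were at 96.3%, 96.3% and 96.8% at 0 h and at 96.9%, 96.9% and 97.6% at 24 h, so that they did not overlap, whereas those of HoxA and HoxC did. The Control means at 24 h were 95.1%, 91.7% and 96.5% in HoxA, HoxC and HoxD. In HoxD the 24 h mean was the highest in Control as well (96.54%, against 96.48% at 0 h), though not with some single libraries left out. These means over CpG clusters were not tested. The 24 h Ikaros libraries include Ikaros 24 h replicate 2, with the highest share of levels at exactly 0 or 1 (59.1%). Without it, the Ikaros difference between 24 and 0 h was 0.798 points in HoxA, 0.874 in HoxC and 0.803 in HoxD, against 0.671, 1.19 and 0.683 with it. At Hoxd3 (chr2:74749474-74750112), the M-value difference between 24 and 0 h was 1.85 also with the shares of empty and of 0 or 1 values as covariates (limma, adjusted p = 0.178).

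**Figure D5:**
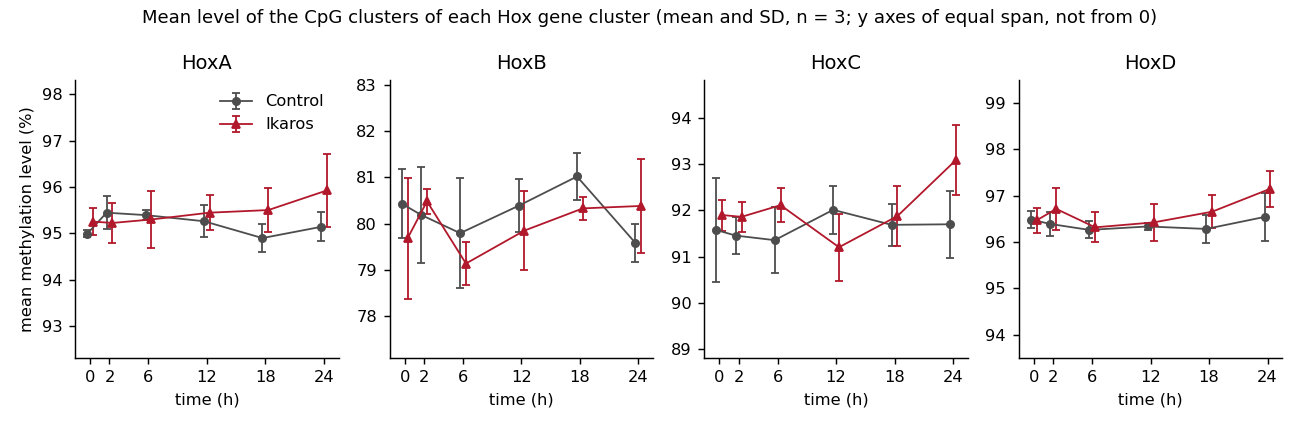
Mean level (y axis, percent, equal spans, not from 0) of the CpG clusters of HoxA, HoxB, HoxC and HoxD against time in h, as mean and SD of 3 samples for Control (circles) and Ikaros (triangles). The means stay within 1.88 percentage points in each series, and HoxC and HoxD of Ikaros have their highest means at 24 h (93.1% and 97.1%), as has HoxA (95.9%) only with Ikaros 24 h replicate 1 included. HoxD of Control is also highest at 24 h (96.5%).

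Among the other lists, the series test called 5 of 109 CpG clusters of other homeobox genes, all higher in Ikaros (Lhx2, Dlx2, Otx1, Barx1 and Six3), and 1 of 15 of the ParaHox and Evx genes, where 4.84% of all CpG clusters were called and 3.71% were called higher in Ikaros. The latter was Evx1 (chr6:52313854-52314238), which lies beyond the end of HoxA, at 95.3% ± 1.91 and 92.9% ± 2.41 (limma, adjusted p = 0.0384). The 5 included intermediate levels with larger differences than any high Hox member, as in Otx1 with 79.6% ± 6.26 and 69.3% ± 7.07 (adjusted p = 0.00382). No CpG cluster of the cofactors (16) or of the regulators (24) was called, with 2 in each at an unadjusted p under 0.05. Of the noncoding genes, 1 of 19 was called, which is the Hoxb4 exon counted for Mir10a.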

How the data were processed

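RRBS libraries of 36 samples (2 series, 6 time points, 3 replicates) were examined. Per the methods of the study, the authors trimmed reads with Trim Galore 0.3.4, mapped them to GRCm38 (mm10) with Bismark 0.10.1, formed CpG clusters of at least 20 sites and smoothed levels over 80 bp, so that neighbouring positions share reads. The deposited tables hold this level as a fraction from 0 to 1 and the log2 M-value, made by the authors from levels limited to 0.01 and 0.99. No coverage is given.

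Positions with complete values were averaged within each CpG cluster. The averaged M-values were fitted with limma 3.58.1 under R 4.3.3 (lmFit, eBayes, Benjamini-Hochberg over 16734 CpG clusters, threshold 0.05). Levels are printed in percent. Genes are those of GENCODE M21, and the sequences were read from the GRCm38 reference, some stretches not being reported here. The tests were checked on simulated data, where most of the smaller changes, and those over time in particular, were not called. The members and lists were chosen with earlier results of these data known. Named are the members past a threshold, those with the smallest p in each test, the 3 highest and the 3 most different in each chromosomal cluster, and those nearest a start.

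Replicate numbers pair the series, as the labels give same-numbered samples of a time point the same batch, but their deviations correlated by only -0.00665 in the mean over 18 pairs. Labels give biological replicates of 1 cell line. Per the methods of the study, the cells of a time course were thawed and expanded before the split into flasks. The later samples of a batch and series therefore share an expansion, and the p-values measure the spread between these flasks. They do not measure a spread over 18 independent cultures per series.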

Additional observations from a re-analysis of the deposited data

How the results depend on the processing

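Members were tested on another scale, with every listed position, with covariates or blocks, with other windows and without samples. The replicate block gave 2 members between the series (2 also in the block by pair of time point and replicate number) and 0 in the other tests. These blocks changed no call, whereas with the batch as a factor the Hoxa7 member passed (limma, adjusted p = 0.0454). The count of 2 became 1 with the shares of empty and of 0 or 1 values as covariates, 4 in the 2 h to 24 h samples and 0 in the 0 h samples, which are only 6. With single libraries or replicate numbers left out it ranged from 1 to 4, the 4 without Ikaros 2 h replicate 2 and without Ikaros 24 h replicate 1. For 24 h against 0 h in Ikaros the range was 0 to 1. The mean of HoxB was 82.5% over single positions, and that of HoxC 93.0% over single positions and 91.0% with every listed position. With limits of 20% and 80%, 4 members were intermediate in place of 8. No called result changed sign. Without coverage, no interval for single levels could be given, and levels near 0 or 100% are limited on the M-value scale. The within-replicate fits and the 0 h fit have few samples, and neither the Hoxb9 call (adjusted p from 0.152 to 0.786) nor that of Hoxb4 (0.253 to 0.862) was reached in them.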
